A study of Mus musculus with 28 samples.

Results

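The 8 genes described here, Tdo2, Lct, Dsp, Trpc6, Calb1, Prox1, C1ql2 and Npnt, are markers of dentate granule cells, the main excitatory neurons of the dentate gyrus. A gene was included where a probe set of the array carried its symbol and no other symbol, and each of the 8 had exactly 1 such probe set, among 19938 genes measured in all. The study hybridized hippocampal RNA of C57BL/6J mice, 100 ng of total RNA per sample, to 28 Affymetrix Mouse Gene 1.0 ST arrays. At 10 weeks of age, wild type, G/G (fosB-null) and d/d (lacking FosB protein) mice had received saline or KA (kainic acid, an agonist of kainate-type glutamate receptors that causes seizures), with 3 arrays in each of the 6 groups. The aged mice were wild type (68.7 to 70.3 weeks, 3 arrays), fosB-null with epilepsy (69 to 71 weeks, 3 arrays), fosB-null without epilepsy (71 weeks, 2 arrays) and fosB d/d (64.7 to 70 weeks, 2 arrays). The aged mice carry no treatment label. The alleles are given as a genotype only: no promoter, Cre line or cell type is named, and a mutation present in the whole animal would reach all cells of the hippocampus.

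Granule cells receive the cortical input of the hippocampus and send mossy fibres to CA3. They are known to change their gene expression strongly after seizures. Prox1 encodes a homeobox transcription factor that sets and keeps granule cell identity. Calb1 encodes calbindin, a calcium buffer that is known to be reduced in granule cells of epileptic rodents. C1ql2 encodes a secreted C1q-like protein of the mossy fibre synapse. Tdo2 encodes tryptophan 2,3-dioxygenase, an enzyme of tryptophan breakdown, and Dsp encodes desmoplakin, a protein of desmosomes; both are used as markers of mature granule cells. Lct encodes lactase, Trpc6 a calcium-permeable cation channel and Npnt nephronectin, an extracellular matrix protein that binds integrin. FosB and its shorter form, deltaFosB, are activity-induced transcription factors of the AP-1 family, so the 3 genotypes address whether the KA response of these genes differs where the fosB gene is altered.

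The promoters shown are those of the 4 genes with the largest falls after KA in wild type mice. Each is the stretch of 250 bases upstream of the annotated start, 5′ to 3′ on the gene's strand, from RefSeq on GRCm38.p6. Tdo2 lies on the minus strand of chromosome 3 (chr3:81975729-81975978), Lct on the minus strand of chromosome 1 (chr1:128328319-128328568), Dsp on the plus strand of chromosome 13 (chr13:38151044-38151293) and Trpc6 on the plus strand of chromosome 9 (chr9:8543892-8544141). Capitals mark matches to an E-box (CANNTG) in Lct and to a CArG box, the serum response element core, in Trpc6.
Tdo2: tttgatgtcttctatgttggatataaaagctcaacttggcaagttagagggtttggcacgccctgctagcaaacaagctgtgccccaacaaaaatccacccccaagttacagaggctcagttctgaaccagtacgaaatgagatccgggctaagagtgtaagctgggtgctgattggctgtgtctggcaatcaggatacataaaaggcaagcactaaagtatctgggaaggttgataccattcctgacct
Lct: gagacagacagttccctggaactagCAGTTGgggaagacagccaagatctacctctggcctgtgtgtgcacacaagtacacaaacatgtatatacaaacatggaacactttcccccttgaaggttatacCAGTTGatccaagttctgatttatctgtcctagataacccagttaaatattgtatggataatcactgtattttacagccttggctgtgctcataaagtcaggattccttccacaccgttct
Dsp: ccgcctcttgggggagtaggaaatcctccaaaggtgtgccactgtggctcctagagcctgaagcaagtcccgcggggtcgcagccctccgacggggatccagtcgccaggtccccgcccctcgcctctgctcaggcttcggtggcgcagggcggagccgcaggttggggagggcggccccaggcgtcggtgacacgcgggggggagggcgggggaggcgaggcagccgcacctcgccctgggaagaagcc
Trpc6: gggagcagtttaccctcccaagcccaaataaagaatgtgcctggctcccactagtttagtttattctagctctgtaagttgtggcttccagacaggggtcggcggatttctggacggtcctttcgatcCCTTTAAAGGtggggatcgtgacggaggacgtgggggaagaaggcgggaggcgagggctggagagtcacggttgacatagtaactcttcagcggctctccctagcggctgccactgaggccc
An AP-1 site (TGANTCA) was matched in 0 of the 7 members with a promoter sequence, against 6.75% of 32851 promoters of the same length. The CRE (TGACGTCA), matched in 1.55% of those promoters, was likewise found in 0 of the 7. A CArG box was matched in 1 member, Trpc6, and in 1.47% of promoters. An E-box was matched in 4 of the 7 members and in 66.2% of promoters. These 2 figures differ in unit: a member was counted where any of its promoters matched, while the share counts single promoters. Prox1 and Npnt have more than 1 promoter, and both also had a promoter without an E-box. Both strands were searched, the motifs do not overlap in the sequences shown, and a match in this window is a description of letters only.

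The array levels are log2 signals after quantile normalization, so 1 unit is a 2-fold difference, and the level of one gene cannot be set against that of another. Replicates of a group correlated at 0.986 to 0.998 over all genes, and the number of arrays limits the precision of every value. The targeted gene itself, Fosb, had a level of 8.74 ± 0.06 (mean ± SD, n = 3) in the saline group of wild type mice, 8.45 ± 0.05 in that of fosB-null and 9.18 ± 0.23 in that of fosB d/d mice, and the sources used here do not say which part of its transcript the array covers. After KA it was at 7.81 to 8.43 in fosB-null, overlapping wild type (8.35 to 8.77), and at 8.81 to 9.16 in fosB d/d mice. In the aged mice it was at 9.44 to 9.86 in wild type, 9.97 to 10.03 in fosB d/d and 8.69 to 8.94 in fosB-null without epilepsy. Of the libraries labelled fosB-null with epilepsy, replicates 1 and 3 were at 8.32 and 8.65, but replicate 2 was at 9.68, within the aged wild type range. Fosb thus sets that library apart from the other aged fosB-null libraries. Whether its genotype label is wrong cannot be decided from this value, since the part of the transcript covered is not known. The results that rest on that library are given with and without it. On every array the mean level of 11 pan-neuronal genes lay between 12.27 and 12.49. These are general neuronal genes, so their level does not check that the tissue was hippocampus. The mean of 5 choroid plexus genes ranged from 8.56 to 11.06. The labels conflict in places: the fosB d/d saline mice have KA in their source name but saline in title and treatment, and they were kept as saline. A growth protocol gives one age, older than 10 weeks, for all mice, while the age labels used here separate young from aged mice. All mice are labelled female, but the Y-linked gene Eif2s3y was at 9.78 to 10.41 on the young arrays and at 4.12 to 4.51 on the aged ones. The X-linked gene Xist was at 12.09 to 13.00 on the aged arrays. On the young arrays it was at 5.91 to 7.39, except in replicate 1 of wild type saline, at 9.58. The Y-linked signal of the young arrays goes against their female label. Age, these sex-linked signals and the run of the arrays cannot be told apart between young and aged mice, so the 2 age classes are given side by side without a test. The young arrays were placed in 3 sets, chosen with earlier results of these data known. The sample titles do not name these sets. The deposited medians separate set 2 (8.329 to 8.427) from the others, but not set 1 (8.074 to 8.108) from set 3 (8.052 to 8.106). Replicate 1 of every group formed set 1, and replicates 2 and 3 formed set 2 in the saline groups and wild type KA but set 3 in the KA groups of both mutants. KA and array set are therefore partly mixed in the mutants, and the difference within set 1 is given beside those results.

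KA lowered 5 of the 8 markers in wild type mice: Tdo2, Lct, Dsp, Trpc6 and Prox1. The falls were unequal, from 3.29-fold for Tdo2 to 1.17-fold for Prox1. Calb1, C1ql2 and Npnt lay lower on average without passing the test. Of all 19938 genes, 3.42% were called lower and 6.9% were called in either direction at a limma adjusted p under 0.05, and the arrays of the saline and KA groups did not overlap for 5 of 8 members against 22.3% of all genes. The median change of the 8 was -0.39, against 0.01 over all genes. In this bulk tissue fewer granule cells and less RNA per granule cell cannot be told apart from the level of any 1 gene.

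Tdo2 changed most. Its level was 7.52, 7.95 and 7.60 on the 3 wild type saline arrays and 5.99, 5.90 and 6.01 on the 3 wild type KA arrays. The groups were more than 1 log2 unit apart at their nearest arrays, and the KA arrays were the closest together of any young group except fosB d/d saline. The change was -1.72 (standard error, SE, 0.20, limma adjusted p = 6.3e-05), a 3.29-fold fall. Within set 1 the difference was -1.53 between single arrays, and within set 2 it was -1.82. Tdo2 was also the dimmest of the markers, at percentile 23.6 of mean level, and the fit without the dimmest genes leaves it out. Its wild type KA levels lay close to those of Xist in the same group, 5.91 to 6.32. In aged wild type mice Xist was at 12.09 to 12.99. How far a floor of the signal shaped the size of the Tdo2 fall and its narrow spread after KA was not tested.

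Lct followed the same order of groups in wild type. It stood at 10.21, 9.76 and 9.79 after saline and at 8.96, 8.98 and 8.95 after KA. The 3 KA arrays lay within a narrow band, below each saline array. The change was -0.96 (SE 0.17, adjusted p = 0.00251), a 1.94-fold fall, and it was -1.25 within set 1 and -0.81 within set 2.

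Dsp and Trpc6, the desmosomal and the channel gene, fell by smaller amounts. Dsp was at 9.41, 9.52 and 9.54 after saline and at 8.76, 8.99 and 8.72 after KA, a change of -0.67 (SE 0.14, adjusted p = 0.00958). Trpc6 was at 10.23, 10.22 and 10.01 after saline and at 9.62, 9.70 and 9.55 after KA, a change of -0.53 (SE 0.11, adjusted p = 0.00624). For both genes each KA array was below each saline array. Leaving out any 1 of the 6 arrays kept Tdo2, Lct, Dsp and Trpc6 past the threshold in 6 of 6 fits each. Without replicate 1 of wild type saline, the array with the Xist signal, the changes were -1.81 for Tdo2, -0.81 for Lct, -0.71 for Dsp and -0.49 for Trpc6. Without normalization between arrays Dsp changed by -0.70, slightly more than in the normalized data, but with a larger SE (0.19), and its call was lost (adjusted p = 0.0559).

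Prox1, the identity factor, moved little but with little spread. It was at 11.00, 10.98 and 11.02 after saline and at 10.75, 10.77 and 10.78 after KA. The groups did not overlap, and the change was -0.23 (SE 0.07, adjusted p = 0.0428), a 1.17-fold fall. The 95% interval of this change, -0.37 to -0.09, lies wholly above that of Tdo2, -2.14 to -1.30, and that of Lct, -1.32 to -0.60. The call of Prox1 was lost when any 1 array was left out (-0.24 to -0.22, adjusted p = 0.0795 to 0.116), without normalization between arrays (-0.28, adjusted p = 0.252), in a fit of the compared groups alone (-0.23, adjusted p = 0.187) and within array set 2 (-0.22, adjusted p = 0.0844). Its size thus stayed near the main value while its test moved across the threshold.

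Calb1, C1ql2 and Npnt had overlapping groups. Calb1 was at 11.57, 11.38 and 11.41 after saline and at 11.35, 11.09 and 11.46 after KA, a difference of -0.15 (95% interval -0.35 to 0.05, adjusted p = 0.406). The highest KA array for calbindin lay above 2 of the 3 saline arrays. C1ql2, the mossy fibre protein, was at 10.39, 10.55 and 10.57 after saline and at 10.22, 10.42 and 10.33 after KA. Its difference was -0.18 (95% interval -0.40 to 0.04, adjusted p = 0.379). Npnt was at 9.53, 9.87 and 9.92 after saline and at 9.20, 9.64 and 9.72 after KA, and replicate 1 was lowest in both groups. Its difference was -0.25 with a wide interval, -0.70 to 0.19 (adjusted p = 0.558). For Calb1 and C1ql2 the intervals leave out falls as large as the 1.94-fold change of Lct, while small falls of the size of Prox1 lie inside them.

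**Figure D1:**
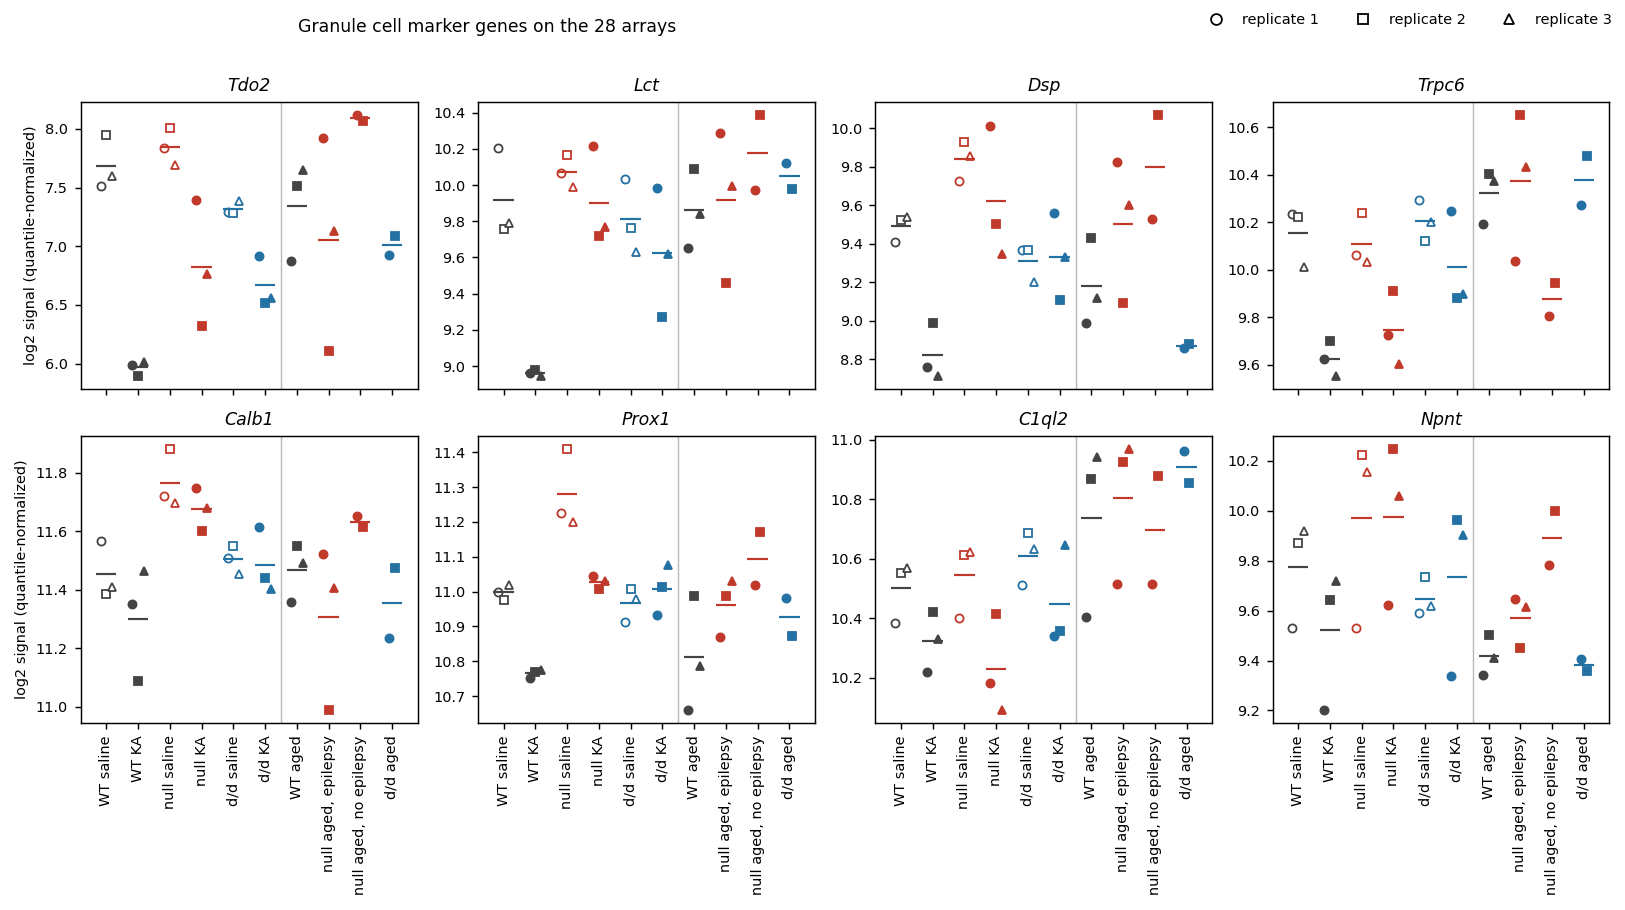
Level of each marker (log2 signal after quantile normalization, vertical axis, a scale of its own in each panel) on each of the 28 arrays, by group; points are arrays with the replicate as shape, open for saline, and lines are group means. In wild type the KA arrays of Tdo2 (5.90 to 6.01), Lct (8.95 to 8.98), Dsp, Trpc6 and Prox1 lie below the saline arrays, while those of Calb1, C1ql2 and Npnt overlap.

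Genes of neighbouring cell classes were measured on the same wild type arrays, from lists chosen with earlier results of these data known. Of 14 other granule cell genes, 4 fell and 1 rose, with a median of -0.22 against 0.01 over all genes. Lrrtm4, a postsynaptic adhesion protein, changed by -0.48 (SE 0.10, adjusted p = 0.00647), Stxbp6, a regulator of vesicle fusion, by -0.37 (SE 0.09, adjusted p = 0.0183) and Dock10, a guanine nucleotide exchange factor, by -0.34 (SE 0.09, adjusted p = 0.0288). Smad3, a transducer of TGF-beta signals, rose by 0.29 (SE 0.07, adjusted p = 0.0141). The 4 called falls lay between those of Prox1 and Trpc6 in size. A median this low was not particular to granule cell genes: it was -0.23 for 6 astrocyte genes and -0.28 for 5 oligodendrocyte genes on the same arrays.

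General and regional neuronal genes gave few calls. Of 11 pan-neuronal genes 0 passed, with a median of -0.09; the smallest p-values were those of Thy1, at -0.15 (adjusted p = 0.117), and Nefl, a neurofilament, at -0.21 (adjusted p = 0.118). Of 11 CA pyramidal genes 0 passed (median -0.04), with Man1a at 0.49 (adjusted p = 0.0538) and Fibcd1 at -0.37 (adjusted p = 0.0894). Of 7 genes of mossy cells, the other excitatory neurons of the dentate gyrus, 0 passed (median 0.02), with Drd2 at 0.38 (adjusted p = 0.0837) and Nmb at -0.19 (adjusted p = 0.0952). Of 7 immature granule neuron genes 1 fell, Dcx, the doublecortin gene, by 0.34 (adjusted p = 0.0349), and the list had a median of -0.14.

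Genes induced late by neuronal activity and reactive astrocyte genes moved the other way on these arrays. Of 11 late activity genes 10 rose (median 0.98), among them Gal, the galanin precursor, by 1.82 (adjusted p = 6.7e-06), Nptx2, a neuronal pentraxin, by 1.31 (adjusted p = 5.2e-06) and Bdnf, a neurotrophin, by 0.60 (adjusted p = 1.1e-04). Of 8 reactive astrocyte genes 8 rose, with a median of 1.94. Among the 6 astrocyte genes 1 rose, Aqp4, the water channel, by 0.77 (adjusted p = 0.0135), and 1 fell, Gja1, the connexin 43 gene, by 0.98 (adjusted p = 4.5e-05). Of the 5 oligodendrocyte genes 1 fell, Cnp, a myelin enzyme, by 0.54 (adjusted p = 0.00138). The falls of Gja1 and Cnp were larger than those of all 14 other granule cell genes. Of 6 microglia genes 0 passed, with a median of 0.07. The 5 choroid plexus genes had a median change of 0.81 with 0 calls, and their mean level ranged from 8.86 to 10.90 in wild type saline and from 10.05 to 10.91 in wild type KA; the part of any of these lists in the falls of Tdo2 and the other markers was not tested.

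**Figure D2:**
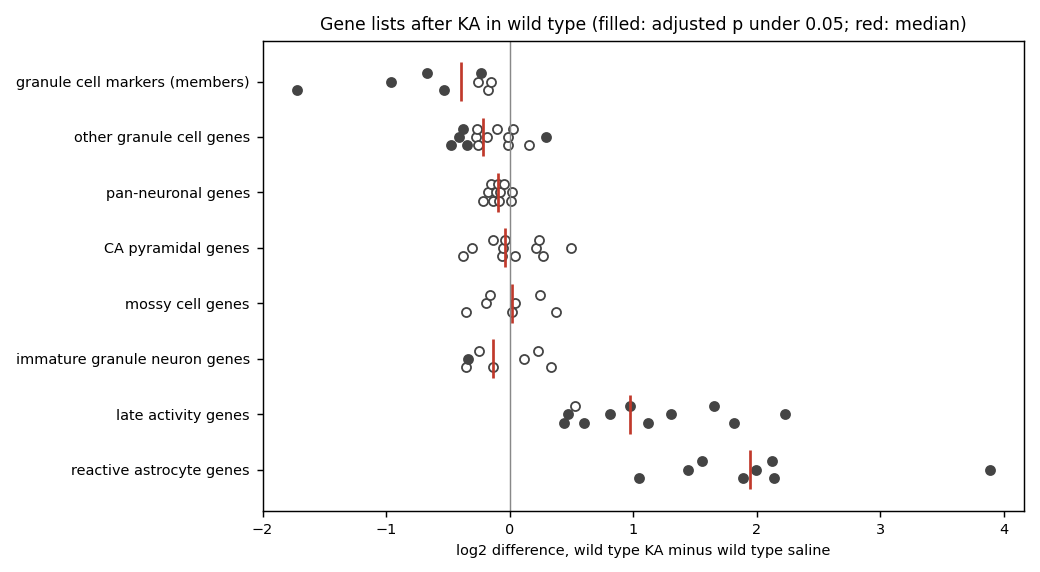
Change of single genes (wild type KA minus wild type saline, log2, horizontal axis) for the 8 markers and 7 gene lists; each point is a gene, filled where the limma adjusted p is under 0.05, and red lines are list medians. The markers reach down to -1.72 with a median of -0.39, the pan-neuronal genes stay between -0.21 and 0.02, and the medians of the late activity and reactive astrocyte genes are 0.98 and 1.94.

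In fosB-null mice KA lowered 1 of the 8 markers, Tdo2. Of all genes 0.291% were called lower in this comparison and 0.762% in either direction. Tdo2 was at 7.83, 8.01 and 7.69 after saline and at 7.39, 6.32 and 6.76 after KA, so the groups did not overlap but the KA arrays were spread over more than 1 log2 unit. The change was -1.02 (SE 0.20, adjusted p = 0.0212), a 2.03-fold fall. It was -0.44 within set 1 and -0.57 with the array set as a block (adjusted p = 0.433, where 0.0602% of all genes passed), and the call was also lost without normalization between arrays (adjusted p = 0.0513), with a fit of the compared groups alone (adjusted p = 0.216) and in 5 of the 6 fits that left out 1 array. Of these fits, the one without replicate 1 of fosB-null KA kept it.

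The other markers of fosB-null mice did not pass, though several were lower. Prox1 was at 11.23, 11.41 and 11.20 after saline and at 11.05, 11.01 and 11.03 after KA, a difference of -0.25 (SE 0.07, adjusted p = 0.101). Its groups did not overlap, and same-numbered arrays varied together in this comparison: blocking on that number gave an adjusted p of 0.0393 and called 2 of 8 markers, Tdo2 and Prox1, where 2.39% of all genes passed. Trpc6 was at 10.06, 10.24 and 10.03 after saline and at 9.73, 9.91 and 9.60 after KA, again without overlap, at -0.36 (SE 0.11, adjusted p = 0.158). The difference was -0.32 for C1ql2 (adjusted p = 0.211), -0.22 for Dsp, -0.17 for Lct, -0.09 for Calb1 and 0.01 for Npnt. At an unadjusted p under 0.05, 4 of 8 members and 6.73% of all genes were lower, and the groups did not overlap for 3 of 8 members and 17.3% of all genes.

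Lct and Dsp, both called in wild type, had overlapping groups here. In fosB-null mice Lct was at 10.07, 10.16 and 9.99 after saline and at 10.21, 9.72 and 9.77 after KA. Dsp was at 9.73, 9.93 and 9.86 after saline and at 10.01, 9.50 and 9.35 after KA. In both genes replicate 1 of the KA group, the array of set 1, lay above each saline array, while replicates 2 and 3 lay below them.

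In fosB d/d mice KA changed 0 of the 8 markers at the adjusted threshold, where 0.461% of all genes were called. At an unadjusted p under 0.05 there was 1 member, Tdo2, against 12.2% of genes. Tdo2 was at 7.29, 7.28 and 7.39 after saline and at 6.92, 6.52 and 6.56 after KA. Its groups did not overlap, which held for this 1 member and 16% of all genes, and the difference was -0.65 (SE 0.20, adjusted p = 0.181), or -0.38 within set 1. Lct was at 10.04, 9.76 and 9.63 after saline and at 9.99, 9.27 and 9.62 after KA, a difference of -0.19 (95% interval -0.55 to 0.18). Dsp was at 9.37, 9.37 and 9.20 after saline and at 9.56, 9.11 and 9.33 after KA, a difference of 0.02 (95% interval -0.29 to 0.33). Lct and Dsp had overlapping groups, and so had the remaining 5 markers. The differences were -0.20 for Trpc6, -0.16 for C1ql2, -0.02 for Calb1, 0.04 for Prox1 and 0.09 for Npnt.

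**Figure D3:**
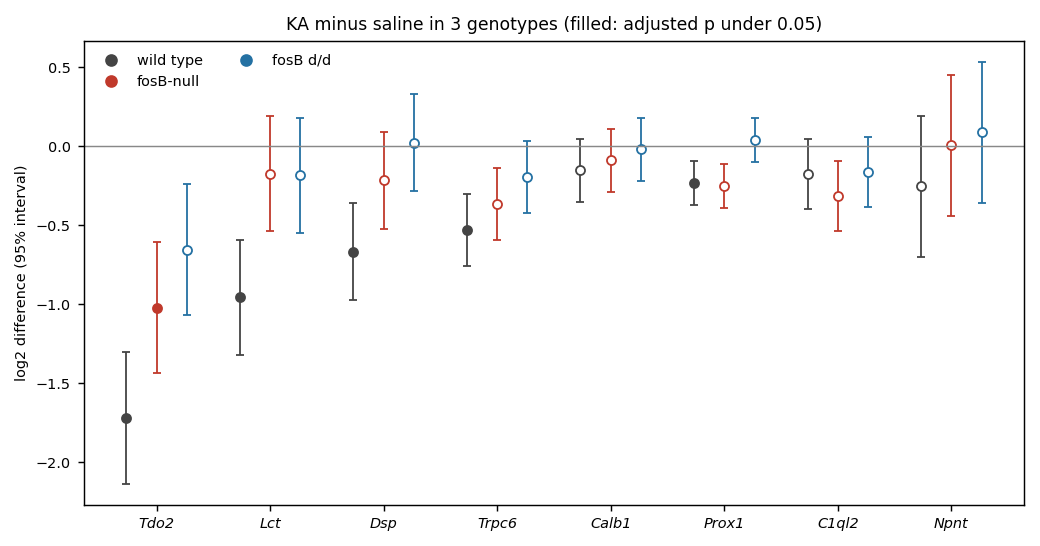
Difference between KA and saline groups (log2, vertical axis) for the 8 markers in wild type, fosB-null and fosB d/d mice; bars are 95% intervals from limma, and filled points have an adjusted p under 0.05. The wild type values of Tdo2 (-1.72), Lct (-0.96) and Dsp (-0.67) are the lowest of the 3 genotypes, as are those of Trpc6, Calb1 and Npnt. The intervals of Trpc6, Calb1, C1ql2 and Npnt overlap in all 3.

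The difference of the KA response between genotypes was tested directly, as mutant minus wild type, and both tests use the same wild type arrays. For fosB-null mice 0 of 8 members passed the adjusted threshold, as did 0.176% of all genes. Lct had a difference of 0.78 (SE 0.24, adjusted p = 0.17), Tdo2 of 0.70 (SE 0.28, adjusted p = 0.279) and Dsp of 0.45 (SE 0.20, adjusted p = 0.342). These 3 members were the ones at an unadjusted p under 0.05 with a smaller fall in the mutant, against 6.24% of all genes in that direction. With the array set as a block 3 members passed, where 1.12% of all genes did: Tdo2 at 1.15 (adjusted p = 0.0277), Lct at 0.99 (adjusted p = 0.0183) and Dsp at 0.81 (adjusted p = 0.0255). Blocking on the replicate number instead, Lct was the 1 member that passed (adjusted p = 0.0429), where 1.98% of all genes did.

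For fosB d/d mice 0 of 8 members passed as well, with 0.0301% of all genes called. At an unadjusted p under 0.05 were 5 members, each with a smaller fall or none in the mutant, against 3.4% of all genes in that direction. They were Tdo2, with a difference of 1.07 (SE 0.28, adjusted p = 0.266), Lct, 0.77 (SE 0.24, adjusted p = 0.387), Dsp, 0.69 (SE 0.20, adjusted p = 0.332), Trpc6, 0.33 (SE 0.15, adjusted p = 0.618) and Prox1, 0.27 (SE 0.09, adjusted p = 0.436). With the array set as a block 3 members passed, where 0.828% of all genes did: Tdo2 at 1.52 (adjusted p = 0.00716), Lct at 0.98 (adjusted p = 0.0189) and Dsp at 1.05 (adjusted p = 0.00668). The result for these 3 genes thus depends on whether the array set enters the fit. For Calb1 the difference of response was 0.06 (95% interval -0.22 to 0.35) in fosB-null and 0.13 (95% interval -0.15 to 0.42) in fosB d/d mice.

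The gene lists were read in the mutants too. Other granule cell genes fell in 1 of 14 cases in fosB-null mice, Plk5, a polo-like kinase, by 0.65 (SE 0.11, adjusted p = 0.00977), and in 0 of 14 in fosB d/d mice. The pan-neuronal genes gave 0 of 11 calls in each mutant. Late activity genes rose in 0 of 11 cases in fosB-null mice and in 1 of 11 in fosB d/d mice, Gal, by 0.81 (adjusted p = 0.03). Reactive astrocyte genes rose in 7 of 8 cases in fosB-null and in 5 of 8 in fosB d/d mice. In fosB-null mice 1 of 6 microglia genes fell, P2ry12, a purinergic receptor, by 0.59 (adjusted p = 0.0212), and 1 of 5 oligodendrocyte genes fell, Mobp, a myelin protein gene, by 0.40 (adjusted p = 0.0461). The CA pyramidal, mossy cell, immature granule neuron, astrocyte and choroid plexus lists gave 0 calls in either mutant, and the microglia and oligodendrocyte lists gave 0 in fosB d/d mice. Over single arrays the mean level of the 11 late activity genes was 9.02 to 9.25 in wild type saline and 10.14 to 10.29 in wild type KA. It was 9.32 to 9.49 in fosB-null KA and 9.49 to 9.68 in fosB d/d KA. In the direct test of the KA response, mutant minus wild type, 2 of the 11 passed in fosB-null mice, Nptx2 at -1.32 (adjusted p = 6.1e-04) and Gal at -1.61 (adjusted p = 0.00455), and 1 passed in fosB d/d mice, Nptx2 at -1.11 (adjusted p = 0.00329). For Tdo2, Lct and Dsp the same test called 0 in the main fit of each mutant, as given above, and a relation between these genes and the late activity genes was not tested.

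Without KA 0 of 8 markers passed between mutant and wild type mice in the main fit, though Prox1, Calb1 and Dsp lay apart in fosB-null mice. In fosB-null against wild type saline 0 of 8 members passed, where 0.0802% of all genes did, 3 members and 8.77% of all genes had an unadjusted p under 0.05, and 3 members had groups that did not overlap, against 13.5% of all genes. Prox1 was at 11.23, 11.41 and 11.20 in fosB-null and at 11.00, 10.98 and 11.02 in wild type mice. Each fosB-null array was above each wild type array, a difference of 0.28 (SE 0.07, adjusted p = 0.178), and with the array set as a block the adjusted p was 0.0323, where 1.2% of all genes passed. Calb1 was at 11.72, 11.88 and 11.70 in fosB-null mice, also above each wild type array, a difference of 0.31 (SE 0.09, adjusted p = 0.331). Dsp differed by 0.35 (SE 0.14, adjusted p = 0.518), again without overlap. Between fosB d/d and wild type saline 0 of 8 members passed, where 0.01% of all genes did, and 0 of 8 had an unadjusted p under 0.05, against 1.82% of all genes. The groups did not overlap for 2 of 8 members, Tdo2 and Dsp, and 6.63% of all genes. Tdo2 was lowest in fosB d/d among the 3 saline groups, with a difference from wild type of -0.37 (95% interval -0.78 to 0.05).

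In the aged mice 0 of 8 markers passed in any of the 4 comparisons. Of all genes 0% passed in fosB-null mice with epilepsy against wild type and in fosB-null mice with against without epilepsy, 0.0351% in those without epilepsy against wild type and 0.01% in fosB d/d against wild type. With epilepsy against wild type, 0 of 8 members and 3.37% of all genes had an unadjusted p under 0.05, and the groups overlapped for every member, against 5.34% of all genes without overlap. With 2 or 3 arrays a group these tests have wide intervals. The mean level of the choroid plexus genes was 8.56 to 9.24 in aged wild type, 8.95 to 10.95 in fosB-null with epilepsy, 10.52 to 11.06 in fosB-null without epilepsy and 8.64 to 8.67 in fosB d/d, and its part in the values below was not tested.

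Tdo2 varied widely among the libraries labelled fosB-null with epilepsy. It was at 7.92, 6.10 and 7.13 in fosB-null mice with epilepsy, at 8.12 and 8.07 in those without, at 6.87, 7.51 and 7.65 in wild type and at 6.93 and 7.09 in fosB d/d mice. The epileptic group spanned nearly the whole range of the aged arrays, and its replicate 2, the library with the deviating Fosb, was the lowest aged array. With against without epilepsy the difference was -1.04 (SE 0.42, adjusted p = 0.461), and with epilepsy against wild type it was -0.29 (SE 0.38, adjusted p = 1). Without that library the differences were -0.56 (SE 0.29, adjusted p = 0.692) and 0.18 (SE 0.26, adjusted p = 1). Its choroid plexus mean was 8.95, against 10.80 and 10.95 on the other libraries of its group.

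The library labelled fosB-null with epilepsy, replicate 2, also had the lowest Calb1 of all 28 arrays. Calb1 was at 11.52, 10.99 and 11.41 with epilepsy, at 11.65 and 11.62 without, at 11.36, 11.55 and 11.49 in aged wild type and at 11.24 and 11.47 in aged fosB d/d mice. The difference between fosB-null mice with and without epilepsy was -0.33 (95% interval -0.66 to 0.0033, adjusted p = 0.516), and the 2 groups did not overlap. Without that library the difference was -0.17 (SE 0.11, adjusted p = 0.76). Lct on the 3 arrays labelled with epilepsy was 10.29, 9.46 and 10.00, and Dsp was 9.82, 9.09 and 9.60. The same library was the lowest of its group for both genes, while for Trpc6, at 10.04, 10.65 and 10.43, it was the highest. Its Prox1, 10.99, lay between the others of the group, 10.87 and 11.03. The mean of the late activity genes on this library was 9.77, against 8.92 and 8.90 on the others and 9.14 to 9.22 in aged wild type, and with 1 such library no test of that co-occurrence was made.

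Trpc6 and Npnt were the markers with the smallest p-values between aged fosB-null mice with and without epilepsy. Trpc6 was at 9.81 and 9.94 without epilepsy, below each array labelled with epilepsy, a difference of 0.50 (SE 0.16, adjusted p = 0.373). Npnt was at 9.65, 9.45 and 9.62 with epilepsy and at 9.78 and 10.00 without, a difference of -0.32 (SE 0.10, adjusted p = 0.327). Without the library with the deviating Fosb these were 0.36 (adjusted p = 0.613) for Trpc6 and -0.26 (adjusted p = 0.584) for Npnt. Neither gene passed with or without it. At an unadjusted p under 0.05 were 3 of 8 members and 9.77% of all genes, and the groups did not overlap for 4 of 8 members and 26.9% of all genes.

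Aged fosB-null mice without epilepsy were compared with aged wild type in the same fit, and share their arrays with the comparisons above. Npnt was at 9.34, 9.50 and 9.41 in wild type, below both fosB-null arrays, a difference of 0.47 (SE 0.10, adjusted p = 0.134). Dsp was at 9.53 and 10.07 without epilepsy and at 8.99, 9.43 and 9.12 in wild type, a difference of 0.62 (SE 0.22, adjusted p = 0.328). Prox1 was at 11.02 and 11.17 without epilepsy and at 10.66, 10.99 and 10.79 in wild type, a difference of 0.28 (SE 0.11, adjusted p = 0.348). Trpc6 differed in the other direction, by -0.45 (SE 0.16, adjusted p = 0.326). At an unadjusted p under 0.05 were 4 of 8 members and 11.2% of all genes, and the groups did not overlap for 6 of 8 members and 31.5% of all genes. In fosB d/d against wild type aged mice 0 of 8 members reached an unadjusted p under 0.05, against 10.3% of all genes, and 1 of 8, Dsp, did not overlap, against 27.2% of all genes.

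**Figure D4:**
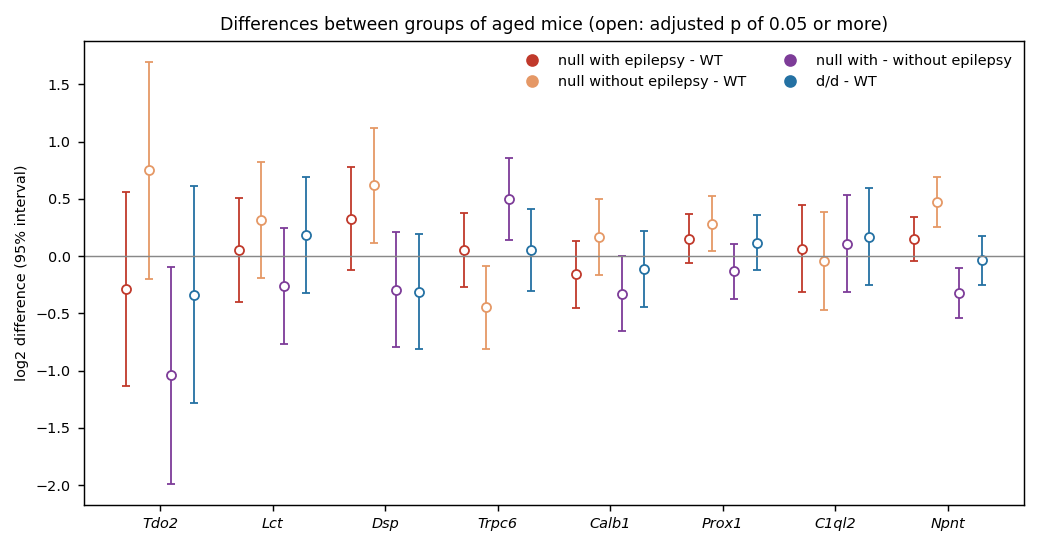
Differences between groups of aged mice (log2, vertical axis) for the 8 markers, with 95% intervals from limma; open points have an adjusted p of 0.05 or more, which holds for all points shown. The widest intervals are those of Tdo2, where fosB-null mice with epilepsy differ by -1.04 from those without and by -0.29 from wild type, or by -0.56 and 0.18 without replicate 2 of the epileptic group.

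Over all 10 groups, wild type KA had the lowest mean of Tdo2, Lct, Dsp, Trpc6, Calb1 and Prox1. For Tdo2 the order from the top was fosB-null aged without epilepsy (8.09 ± 0.04, mean ± SD), fosB-null saline (7.85 ± 0.16), wild type saline (7.69 ± 0.23), wild type aged (7.34 ± 0.41), fosB d/d saline (7.32 ± 0.06), fosB-null aged with epilepsy (7.05 ± 0.91, the group that holds the library with the deviating Fosb), fosB d/d aged (7.01 ± 0.11), fosB-null KA (6.82 ± 0.54), fosB d/d KA (6.67 ± 0.22) and wild type KA (5.97 ± 0.06). Neighbours in this order overlapped in their arrays except at 2 steps, between the first and the second group at the top and between fosB d/d KA and wild type KA at the bottom. For Lct the lowest group was wild type KA at 8.96 ± 0.02, and the other 9 group means lay between 9.63 ± 0.36 (fosB d/d KA) and 10.18 ± 0.29 (fosB-null aged without epilepsy). Neighbours among those 9 differed by less than their spread. For Calb1 the means ran from 11.30 ± 0.19 in wild type KA and 11.31 ± 0.28 in fosB-null aged with epilepsy to 11.77 ± 0.10 in fosB-null saline, and those of C1ql2 from 10.23 ± 0.17 in fosB-null KA to 10.91 ± 0.08 in fosB d/d aged. C1ql2 had its 4 highest means in the 4 aged groups and Npnt its lowest in fosB d/d aged, 9.38 ± 0.04.

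Likeness of pattern was described by Pearson's r over the 10 group means, which share arrays and normalization and carry no test. The genes most like Tdo2 were Gfra2, a receptor subunit of neurturin (r = 0.964), Rbm24, an RNA-binding protein (0.961), Adcy1, a calcium-stimulated adenylate cyclase (0.942), Abcc8, the sulfonylurea receptor (0.936), and Dtna, a dystrobrevin (0.932). Each had its lowest mean in wild type KA, for Gfra2 9.96 against 10.79 in fosB-null saline. Among the markers, Lct was nearest to Tdo2 (0.845), then Dsp (0.711) and Prox1 (0.653), while Trpc6 stood at 0.372. The genes most like Calb1 were Cpeb4 (0.924), 1700071K01Rik (0.923), Astn2 and Grb14 (0.903 each) and 4930519F16Rik (0.901). Among the markers, Npnt (0.842), Prox1 (0.803) and Dsp (0.78) were nearest to Calb1, and C1ql2 (-0.315) and Trpc6 (-0.262) had a negative r.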

How the data were processed

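The authors deposited log2 signals of 35557 probe sets on 28 arrays. Affymetrix Expression Console is the tool named in the submitters' processing notes; its normalization steps are not given in the sources used here, and other sample columns numbered 0. Because the deposited array medians differed (7.95 to 8.43), all 28 arrays were quantile-normalized. Of the probe sets, 21789 carried 1 gene symbol, 1621 several and 12147 none; each of 19938 genes was read from its brightest probe set. Comparisons were contrasts in limma 3.58.1 under R 4.3.3, with 18 young arrays in one fit and 10 aged arrays in another, and Benjamini-Hochberg adjustment over all genes within each of 11 comparisons. The procedure was tested on simulated data.

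The members, the lists and the array sets were chosen with earlier results of these data known. Named genes are the members, Fosb, per list and comparison at most 4 called genes or else 2 of smallest p, and the 5 genes most like Tdo2 and Calb1; the sex-linked genes were named after their values were seen. Replicates are labelled biological.

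The labels reuse replicate numbers without saying what they share. Pairing was checked by correlating, over genes, how arrays with one number deviate from their groups. Every pair was above 0.1, and the numbers were taken to pair the arrays, for KA in fosB-null (0.229 to 0.376) and fosB d/d mice (0.264 to 0.356), for saline fosB d/d and wild type mice (0.395 to 0.773), and for aged wild type and epileptic fosB-null mice (0.212 to 0.5). In the young mice replicate 1 was also array set 1, so these correlations cannot tell a pairing of animals from a shared array set. The main fits held no term for the replicate number, so their counts come from unpaired comparisons. A block on that number was run only as an alternative. Alternatives were the deposited scale, median centring, the replicate block, the array set block, age as a covariate, a fit without the dimmest 30% of genes, averaging over probe sets, trended robust moderation, only the groups compared and each array left out. A fit within array set 2 was added after seeing the data. Promoter sequences and motif shares are from RefSeq, GRCm38.p6, which held 7 of the 8 members.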

Additional observations from a re-analysis of the deposited data

How the results depend on the processing

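Over 1317 alternative values of the members, 0 called changes reversed, 18 lost and 9 gained a call, and 57 uncalled values took the other sign. For KA in wild type 3 of 8 markers were called on the deposited scale and 4 in every fit that left out 1 array. For KA in fosB-null mice 0 were called on the deposited scale, with the array set block, without the dimmest genes (which removes Tdo2) and with only the groups compared, 2 with the replicate block (Tdo2 and Prox1), and 0 to 1 without 1 array. For the difference of response 1 member (Lct) was called with the replicate block in fosB-null mice, and 3 with the array set block in each mutant. For fosB-null against wild type saline 1 (Prox1) was called with the array set block. The replicate block changed no other call of a member. Over all genes, the count called for KA in wild type, 1375, lay between 503 and 3538 under the alternatives and between 711 and 1359 without 1 array; for KA in fosB-null mice, 152, it lay between 12 and 476, and between 22 and 388 without 1 array. In fosB d/d mice the count, 92, lay between 0 and 416, for the difference of response 35 became 8 to 394 in fosB-null and 6 became 2 to 165 in fosB d/d mice, and for fosB-null against wild type saline 16 became 0 to 1044. In the aged comparisons at most 23 genes were called under these settings and at most 43 without 1 array. In set 3 there is no saline array, so in the mutants its KA arrays are linked to saline only through set 1, with 1 array a group. The array set block also takes each shift between sets as equal in all young groups. Its values are therefore not the set 1 differences: for Tdo2 in fosB-null mice they were -0.57 and -0.44. Except where named above, the cause of a lost or gained call was not tested.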

Other observations

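Young and aged wild type mice can be set side by side without a test. Trpc6 was at 10.15 ± 0.13 in young wild type saline and 10.32 ± 0.11 in aged wild type, C1ql2 at 10.50 ± 0.10 and 10.74 ± 0.29, Prox1 at 11.00 ± 0.02 and 10.81 ± 0.16, and Npnt at 9.77 ± 0.21 and 9.42 ± 0.08 (mean ± SD of log2 signals, n = 3 each). Npnt also followed the array set in the young mice: replicate 1 was the lowest array in each of the 6 young groups, at 9.20 to 9.62, against 9.62 to 10.25 for replicates 2 and 3. For C1ql2 replicate 1 was likewise the lowest array of each young group except fosB-null KA, where it was at 10.18 and replicate 3 at 10.09.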
